A study of Homo sapiens with 6 samples.

Results

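This report describes 10 genes of the endoplasmic reticulum (ER) folding machinery and of the unfolded protein response in SH-SY5Y, a cell line from a human neuroblastoma. The genes were set by name (HSPA5, HSP90B1, PDIA4, PDIA6, DNAJB9, HERPUD1, MANF, CALR, XBP1 and ERN1), and all 10 were found among the 60709 genes of the count table that could be read. The labels describe 3 control wells given 10 uL of DMSO, and 3 wells given the same DMSO plus an Nrf2-peptide-linked fumarate, of which 2 mg had been dissolved in 600 uL of water and 200 uL added. All wells held 2 mL of medium and were lysed after 5 h, and no water was stated for the control wells. Columns of the table could be matched by number to the control samples only. The names of 3 other columns match no label, and the peptide-treated wells were not analysed here. No difference between groups is therefore reported, and no test was possible within 1 group. If the columns had been numbered independently of the labels, the libraries taken as controls here could be other libraries of the study, and the labels do not settle this.

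Secreted and membrane proteins fold in the ER, where the Hsp70 protein BiP (HSPA5), the Hsp90 protein GRP94 (HSP90B1), the lectin calreticulin (CALR) and disulfide isomerases (PDIA4, PDIA6) act on them. When unfolded proteins accumulate, the sensors IRE1-alpha (ERN1), ATF6 and PERK (EIF2AK3) signal to the nucleus. IRE1-alpha cuts a short intron out of XBP1 RNA, and the spliced RNA encodes a transcription factor that, with ATF6, acts through the ER stress response element (ERSE) of chaperone promoters. DNAJB9 is a BiP cochaperone that also represses IRE1-alpha, MANF is a secreted ER-resident protein that binds BiP, and HERPUD1 is a membrane component of ER-associated degradation. Cells of this line keep features of the noradrenergic lineage, whose secretory granules are filled by way of the ER.

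The promoters are shown first because the ERSE was present in members that differ in level and role. RefSeq promoter windows (GRCh38.p14, 250 bases before to 50 after the start) were found for 10 of the 10 genes, in 13 windows. The ERSE was searched on both strands as CCAAT and CCACG with 9 bases of any kind between them. It matched in 5 members (HSPA5, HSP90B1, CALR, PDIA6 and XBP1), against 27 of all 35116 windows (0.0769%) and 25 of 27305 genes (0.0916%). These totals include the members. The ERSE is known as an element of chaperone promoters, so its presence in chaperone genes is no independent finding. HSP90B1 held 2 matches, 1 on each strand. The matches are given 5′ to 3′ on the strand that reads the element, with the element in capitals and the distance of its first base from the start.
HSPA5, base -66, chr9:125241379-125241421, minus strand: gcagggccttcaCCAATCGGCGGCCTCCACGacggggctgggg
HSP90B1, base -194, chr12:103930204-103930246, plus strand: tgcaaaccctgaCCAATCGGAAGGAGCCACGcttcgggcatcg
HSP90B1, bases -89 to -71, antisense, chr12:103930309-103930351, minus strand: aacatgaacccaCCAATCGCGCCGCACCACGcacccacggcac
CALR, bases -225 to -207, antisense, chr19:12938372-12938414, minus strand: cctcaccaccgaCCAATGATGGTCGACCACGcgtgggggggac
PDIA6, base -86, chr2:10812841-10812883, minus strand: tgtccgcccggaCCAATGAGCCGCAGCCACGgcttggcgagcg
XBP1, base -52, chr22:28800591-28800633, minus strand: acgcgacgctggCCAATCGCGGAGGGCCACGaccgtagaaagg

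HERPUD1 held the shorter form of the element, ERSE-II, searched on both strands as ATTGG and CCACG with 1 base of any kind between them. This form matched in 19 of the 35116 windows (0.0541%), that of HERPUD1 included, and in 1 member. HERPUD1 also held the composite element of ATF4 and CHOP (CARE, TGATGNAA), which matched in 1270 windows (3.62%). No member window held TGACGTGG, an element of ATF6 and spliced XBP1 that matched in 256 windows (0.729%). The NF-Y box CCAAT, which lies inside the ERSE and, reversed, inside ERSE-II, matched in 11 of the 13 member windows, against 34.6% of all windows. By gene, it matched in all 10 members, against 39.7% of the 27305 genes. PDIA4, DNAJB9, MANF and ERN1 had the NF-Y box alone among these motifs. A match describes the letters of the window and does not show that a factor is bound.
HERPUD1 ERSE-II, base -117, chr16:56932013-56932047, plus strand: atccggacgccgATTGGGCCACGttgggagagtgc
HERPUD1 CARE, bases -176 to -169, antisense, chr16:56931954-56931985, minus strand: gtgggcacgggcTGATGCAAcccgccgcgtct

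**Figure D1:**
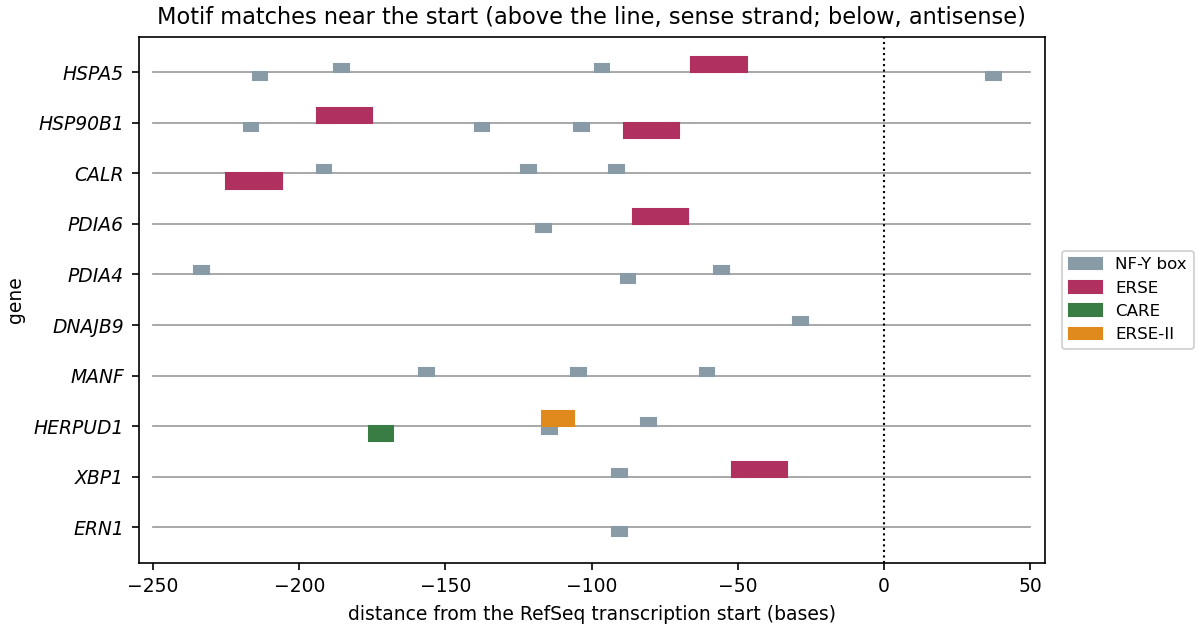
Motif matches in the promoter windows of the 10 genes, by distance in bases from the RefSeq start (dotted line); boxes above each line lie on the sense strand and boxes below it on the antisense strand. For PDIA4, PDIA6 and XBP1, which have 2 windows each, 1 is drawn, and the other window of PDIA6 and of XBP1 held none of the motifs. The ERSE (red) is seen in HSPA5, HSP90B1, CALR, PDIA6 and XBP1, and ERSE-II (orange) in HERPUD1.

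Whole upstream sequence is given for HSPA5, the member with the highest CPM, because its ERSE lies among further NF-Y boxes. The 250 bases before its start (chr9:125241344-125241593, minus strand) carry NF-Y boxes at bases -216, -188 and -99 in addition to the one inside the ERSE, which is in capitals.
HSPA5 upstream: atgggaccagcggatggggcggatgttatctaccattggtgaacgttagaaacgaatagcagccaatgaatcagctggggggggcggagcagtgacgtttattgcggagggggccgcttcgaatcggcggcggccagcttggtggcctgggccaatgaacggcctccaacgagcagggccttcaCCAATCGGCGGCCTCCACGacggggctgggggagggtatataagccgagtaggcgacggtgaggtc

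XBP1 RNA carries the paired loops that IRE1-alpha cuts, and they bear on what its count can show. The loop heptamer was searched as CNGCAGN in the 7 GENCODE 29 transcripts of XBP1. A pair whose cut sites lie 26 bases apart was present in full in 4 transcripts, and 2 transcripts, XBP1-202 and XBP1-207, joined the sequence exactly across those 26 bases. The stretch is given in the RNA sense with T for U and both heptamers in capitals.
XBP1 loops, chr22:28796115-28796163, minus strand: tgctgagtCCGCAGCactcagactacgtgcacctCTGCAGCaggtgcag
Both forms carry the same gene identifier, so the XBP1 values below are the sum of spliced and unspliced RNA.

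Library totals ranged from 8887854 to 11397407 counts. Control replicate 3 stood apart, with differences between libraries that followed the GC content of the transcripts (a rank correlation of -0.727 between GC and the deviation of replicate 3, a description across 10290 genes that share these 3 libraries). It also had 6.25% of its counts in mitochondrially encoded genes, against 4.11% and 3.83% in replicates 1 and 2. Of 9 adrenergic neuroblastoma markers, 8 had at least 10 counts in every library, led by HAND2, while TH had 0 counts in each. None of 5 leukocyte markers, 1 of 4 epithelial markers (EPCAM) and 1 of 7 plasma cell and pancreas markers (SDC1) reached that minimum, and summed epithelial levels were 2.03 to 2.63 CPM. Of 6 fibroblast markers 5 reached it, with a summed level of 363 to 408 CPM, most of it from COL3A1. The labels do not say whether the 3 wells were separate cultures.

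The 10 genes together took 0.401 ± 0.0197% of all counts (SD, n = 3). Their share was 0.407% in replicate 1 (95% Wilson interval 0.403 to 0.411%), 0.417% in replicate 2 (0.414 to 0.421%) and 0.379% in replicate 3 (0.375 to 0.383%). These intervals cover counting error only, and replicate 3 lay below both other libraries by more than that error. HSPA5, HSP90B1, CALR, PDIA4 and PDIA6 held 90.2 ± 0.221% of this share. The chaperones and isomerases that bind folding proteins thus made up most of the counts, and the sensor, the transcription factor and the degradation component made up little. Each of the 10 reached 10 counts in all 3 libraries, a minimum that 13920 genes of the table met.

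**Figure D2:**
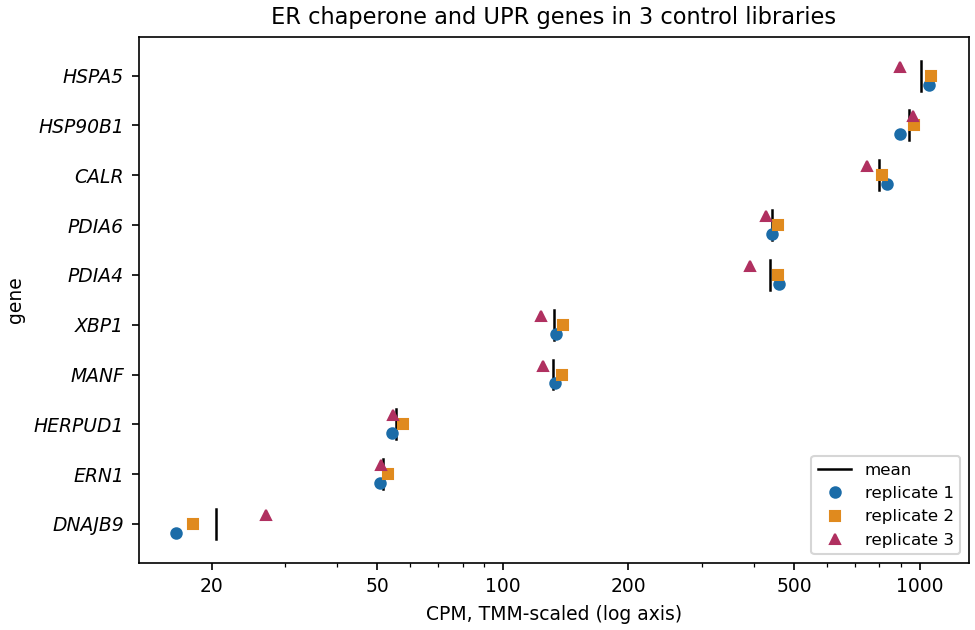
CPM (TMM-scaled, log axis) of the 10 genes in the 3 control libraries, with 1 symbol for each replicate and a vertical bar at the mean. HSPA5, HSP90B1 and CALR lie between 748 and 1064 CPM, DNAJB9 lies lowest, and DNAJB9 is the gene whose replicate 3 value lies farthest above the others.

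The lumenal Hsp70 and Hsp90 proteins had the highest CPM, the count of a gene in a library brought to a total of 1000000 after TMM scaling (trimmed mean of M-values). HSPA5 (ENSG00000044574.9, chr9:125234853-125241330, minus strand) was measured at 1051, 1064 and 898 CPM in replicates 1, 2 and 3, a mean of 1004 ± 92.5 CPM (SD, n = 3). Replicates 1 and 2 were close and replicate 3 was lower. HSP90B1 (ENSG00000166598.16, chr12:103930107-103953645, plus strand) was measured at 894, 970 and 963 CPM in replicates 1, 2 and 3, a mean of 942 ± 41.8 CPM. Here replicate 1 was the lowest, so the 2 chaperones did not vary together on this scale. With the GC trend of each library removed, both were highest in replicate 2 and lowest in replicate 3. HSPA5 then had 1055, 1061 and 892 CPM in replicates 1, 2 and 3, and HSP90B1 had 941, 973 and 910 CPM. Exons of UQCC6 lie on the opposite strand across 121 bases of HSP90B1 exon, and UQCC6 had 122 to 155 counts. The processed copies HSPA5P1, HSP90B2P and HSP90B3P had at most 8 counts in any library.

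Calreticulin and the disulfide isomerases followed. CALR (ENSG00000179218.15, chr19:12938578-12944489, plus strand), the lumenal lectin chaperone that also stores calcium, was measured at 833, 810 and 748 CPM, a mean of 797 ± 43.8 CPM. PDIA6 (ENSG00000143870.13, chr2:10783391-10837977, minus strand) had 441, 456 and 427 CPM, and PDIA4 (ENSG00000155660.11, chr7:149003062-149028641, minus strand) had 461, 457 and 392 CPM. The means of the 2 isomerases, 441 ± 14.5 CPM for PDIA6 and 436 ± 38.9 CPM for PDIA4, differed by less than their spread. PDIA4 was lowest in replicate 3 by more than PDIA6 was. ATP6V1C2, on the opposite strand to PDIA6 over 1033 bases of exon, had 34 to 42 counts.

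The BiP-binding proteins stood far apart from each other. MANF (ENSG00000145050.19, chr3:51385047-51389397, plus strand) was measured at 133, 139 and 125 CPM, a mean of 132 ± 7.11 CPM. DNAJB9 (ENSG00000128590.5, chr7:108569568-108574850, plus strand) was measured at 16.5, 18.03 and 27.0 CPM, a mean of 20.5 ± 5.68 CPM, from 176, 206 and 239 counts. It was the lowest of the 10 genes on this scale and the only one with its highest value in replicate 3. Its coefficient of variation was 27.7%, against 7.005% from counting alone.

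The genes of the IRE1-alpha branch and of degradation lay between DNAJB9 and the isomerases. XBP1 (ENSG00000100219.16, chr22:28794555-28800597, minus strand) was measured at 134, 139 and 124 CPM, a mean of 132 ± 7.92 CPM, which is the level of MANF. ERN1 (ENSG00000178607.17, chr17:64039142-64130819, minus strand) was measured at 50.7, 53.1 and 51.0 CPM, a mean of 51.6 ± 1.31 CPM. HERPUD1 (ENSG00000051108.15, chr16:56932048-56944863, plus strand) was measured at 54.1, 57.6 and 54.4 CPM, a mean of 55.4 ± 1.91 CPM. For ERN1 and HERPUD1 the coefficient of variation, 2.55% and 3.44%, was below the counting error of 4.36% and 4.21%, so their 3 libraries did not differ beyond counting. The copy XBP1P1 had at most 4 counts.

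Levels of different genes were compared as CPM per kb of exon, with the union of the GENCODE 29 exons as length. In descending order CALR had 294 ± 16.1 CPM per kb (SD, n = 3), HSPA5 257 ± 23.7, HSP90B1 201 ± 8.91, PDIA4 133 ± 11.9 and PDIA6 108 ± 3.54 CPM per kb. These 5 genes lay at or above the 98.2 percentile of the 13868 genes that met the count minimum and had a known length. MANF had 55.5 ± 2.98 and XBP1 43.7 ± 2.62 CPM per kb, at percentiles 95.5 and 93.9. HERPUD1 had 10.7 ± 0.370 CPM per kb, DNAJB9 7.22 ± 2.00 and ERN1 4.75 ± 0.121 CPM per kb, at percentiles 66.5, 54.7 and 42.7. The ranges of no 2 neighbours in this order overlapped, and in each library the order was the same.

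The choice of length moved parts of that order. With the longest transcript in place of all exons, CALR stayed highest with 419 ± 23.0 CPM per kb, but HSP90B1 (311 ± 13.8) passed HSPA5 (257 ± 23.7). PDIA6 (164 ± 5.41) likewise passed PDIA4 (150 ± 13.4). The values of HSP90B1, PDIA6, MANF and HERPUD1 rose by over 1.5 times, to 87.6 CPM per kb for MANF and 18.8 CPM per kb for HERPUD1. The order of HSPA5 against HSP90B1 and of PDIA4 against PDIA6 is thus set by the length used, while the low place of HERPUD1, DNAJB9 and ERN1 is not.

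The wider machinery was described by 11 lists holding 105 genes, of which 100 met the count minimum. Their median level was 16.7 CPM per kb (SD 0.173, n = 3), against 6.15 CPM per kb over all genes with that minimum. The 10 genes had a median of 81.5 ± 3.25 CPM per kb, but they were chosen by name, so this height describes the choice. The lists were chosen with earlier results of these data known.

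**Figure D3:**
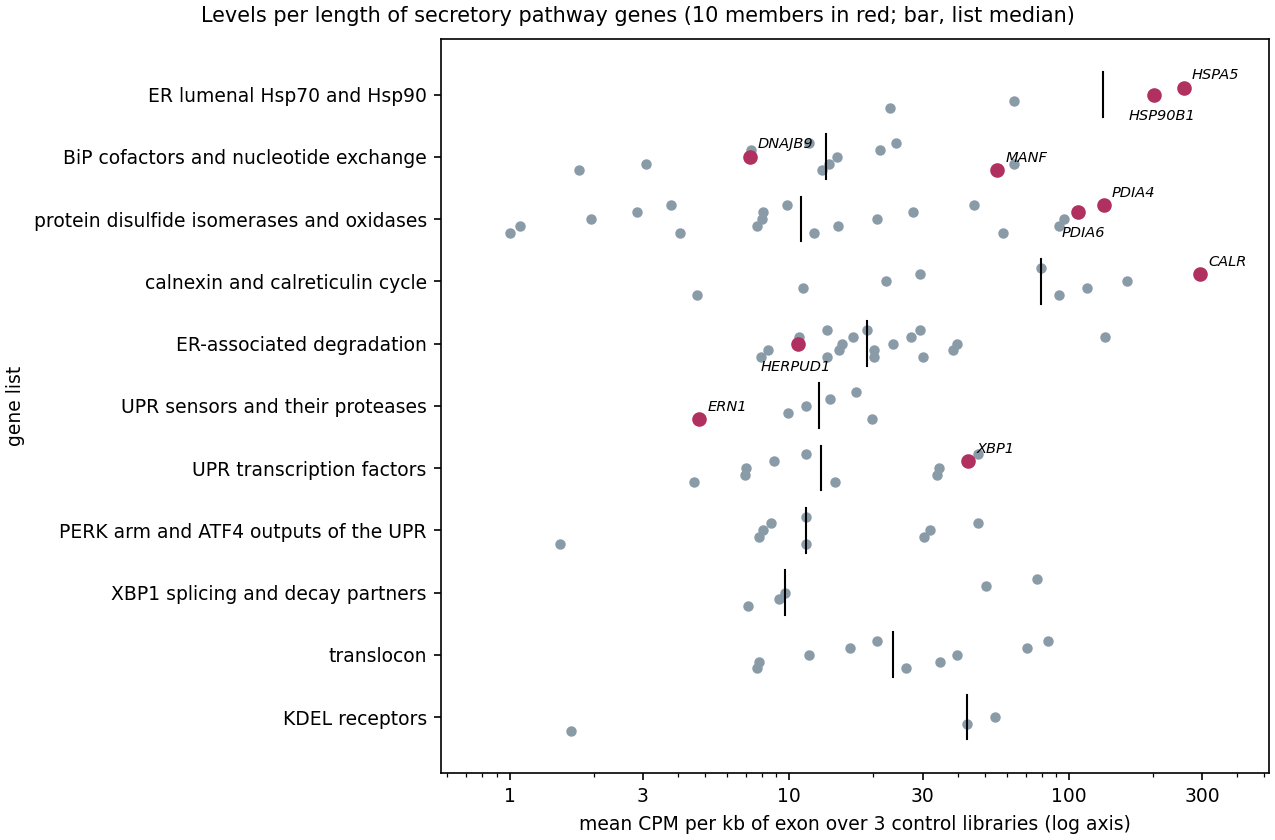
Mean CPM per kb of exon over the 3 control libraries (log axis) for the genes of 11 lists that met the count minimum; each point is a gene, the 10 genes of the report are red and named, and the bar is the median of the gene means. The red points sit at the top of the Hsp70 and Hsp90, isomerase and lectin lists, and at or below the middle of the sensor and degradation lists.

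Among the sensors ERN1 was the lowest of the 6 genes with enough counts. ATF6 had 13.95 ± 0.769 CPM per kb and EIF2AK3, which encodes PERK, had 11.5 ± 0.432 CPM per kb, against 4.75 for ERN1. The ratio of ATF6 to ERN1 per kb was 2.94 ± 0.202, and 2.24 ± 0.154 with the longest transcripts. The proteases that release ATF6 were measured at 19.8 ± 0.269 (MBTPS1) and 9.86 ± 0.980 CPM per kb (MBTPS2). With the longest transcripts they had 46.6 and 19.8 CPM per kb, which put MBTPS2 above ATF6 (14.7) and EIF2AK3 (13.5) instead of below both. ERN2, the epithelial relative of ERN1, was not detected, with 0 counts in all 3 libraries, and at these depths 3 counts correspond to 0.263 to 0.339 CPM. XBP1 exceeded ERN1 by a ratio per kb of 9.19 ± 0.446.

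Transcription factors of the response ranged widely. XBP1 with 43.7 CPM per kb stood beside ATF4 with 47.4 ± 3.76 CPM per kb, the factor translated when PERK is active. DDIT3, which encodes CHOP, had 11.4 ± 0.488 CPM per kb, from 138 to 171 counts. Among outputs of the PERK branch, PPP1R15A, which restores translation, had 30.3 ± 1.49 CPM per kb, TRIB3 7.78 ± 0.219 and CHAC1, a glutathione-degrading enzyme, 1.52 ± 0.175 CPM per kb. CHAC1 rested on 30 to 35 counts. All 9 genes of the PERK branch list reached the count minimum, with a list median of 11.4 ± 0.501 CPM per kb.

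BiP works with J-domain cochaperones and with nucleotide exchange factors. The exchange factor HYOU1 had 63.6 ± 6.91 CPM per kb, while SIL1, another exchange factor, had 3.07 ± 0.116. MANF, which binds BiP and is not counted here as an exchange factor, had 55.5 CPM per kb. With the longest transcripts these were 108 for HYOU1, 87.6 for MANF and 6.40 CPM per kb for SIL1, in the same order. Of the cochaperones, DNAJB11 had 13.9 ± 0.777, DNAJC3 13.1 ± 0.456 and DNAJB9 7.22 CPM per kb. HSPA5 exceeded DNAJB11 18.5 ± 1.06 times per kb, and it exceeded DNAJB9 46.4 times in replicate 1, 42.8 times in replicate 2 and 24.1 times in replicate 3. The ratio to DNAJB9 was therefore much less steady than the ratio to DNAJB11. FICD, the enzyme that inactivates BiP by AMPylation, had 1.77 ± 0.0941 CPM per kb. CDNF, the relative of MANF, had 4, 3 and 2 counts. Of the 13 genes in this list 12 reached the count minimum.

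PDIA4 and PDIA6 were the highest of the 20 disulfide isomerases and oxidases per kb of union exon. P4HB, the founding member of the family, followed with 96.0 ± 4.33 CPM per kb and PDIA3, the partner of calreticulin and calnexin, with 92.0 ± 4.69. With the longest transcripts the ratio of PDIA6 to P4HB went from 1.12 ± 0.0446 to 0.841 ± 0.0335, and P4HB, with 196 CPM per kb, lay above both PDIA6 (164) and PDIA4 (150). The list median was 10.98 ± 0.663 CPM per kb. In the lectin cycle, CALR exceeded its membrane relative CANX by a ratio of 2.54 ± 0.136 per kb, and by 2.48 ± 0.132 with the longest transcripts. CALR3, the testis form of calreticulin, had 0 counts in each library. GANAB, the glucosidase that trims glycans before lectin binding, had 162 ± 7.97 CPM per kb.

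HERPUD1 was below the median of the degradation list, whose 19 genes with enough counts had a median of 18.6 ± 0.649 CPM per kb. VCP, the cytosolic ATPase that extracts substrates, was the highest of that list with 135 ± 8.21 CPM per kb. HERPUD2, the close relative of HERPUD1, had 13.6 ± 0.0676 CPM per kb, and the ratio of HERPUD1 to HERPUD2 was 0.790 ± 0.0233. It became 1.30 ± 0.0384 with the longest transcripts, so which of the 2 is higher was not settled. SEL1L, the scaffold of the same ligase complex, had 13.6 ± 0.0857 CPM per kb. DERL3 had 0, 0 and 1 counts.

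The lumenal chaperones were compared with their relatives of other compartments. Per kb, the cytosolic HSPA8 exceeded HSPA5 2.67 ± 0.295 times, and HSPA5 exceeded the mitochondrial HSPA9 5.13 ± 0.421 times. With the longest transcripts these ratios were 5.25 ± 0.581 and 2.94 ± 0.241. Among Hsp90 genes, HSP90AB1 exceeded HSP90B1 4.23 ± 0.182 times and HSP90B1 exceeded the mitochondrial TRAP1 15.0 ± 1.83 times. With the longest transcripts these were 3.04 ± 0.131 and 10.2 ± 1.25. For these genes the order cytosol, ER, mitochondria held with both lengths, while the size of the steps did not. It did not hold for every lumenal gene. HSPA13, another lumenal Hsp70 gene, had 22.9 ± 2.83 CPM per kb, below HSPA9 with 50.1, and 24.1 against 87.5 with the longest transcripts. HYOU1, of the same lumenal list, lay above HSPA9 with 63.6 CPM per kb, and with 108 for the longest transcripts. Of the KDEL receptors, which return lumenal chaperones from the Golgi, KDELR1 and KDELR2 had 54.3 ± 3.50 and 43.3 ± 2.44 CPM per kb, and KDELR3 had 1.66 ± 0.237.

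The spread of the 10 genes between libraries rested on replicate 3. The median coefficient of variation was 5.43%, against 8.69% over all genes with the count minimum, which include genes of low count. It was 7.30% over the 10290 nuclear genes whose mean count reached 100. Without replicate 3 the median of the 10 genes was 2.66%, against 6.61% without replicate 1 and 5.58% without replicate 2. The same was not computed over all genes. Values of replicate 3 were set against the mean of replicates 1 and 2 on the log2 scale. HSPA5 differed by -0.24 (counting error 0.02), PDIA4 by -0.23, XBP1 by -0.15, CALR by -0.13, MANF by -0.12, PDIA6 by -0.07, HERPUD1 by -0.04 and ERN1 by -0.02. HSP90B1 differed by 0.05 and DNAJB9 by 0.65 (counting error 0.12). By sign alone, replicate 3 was thus the higher in 2 of the 10 genes, against 48.0% of the 10290 nuclear genes whose mean count reached 100. HERPUD1 and ERN1, each with a counting error of 0.08, did not differ beyond that error.

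These differences were read again after the GC trend of each library was removed. CALR went from -0.13 to -0.02 and its coefficient of variation from 5.49% to 0.916%. PDIA4 went to -0.13 and HSP90B1 changed sign, to -0.07. HSPA5 stayed at -0.25 and XBP1 moved to -0.27, with its coefficient of variation going from 5.99% to 10.4%, while DNAJB9 stayed at 0.50. In the distribution over the 10290 genes, HSPA5 then lay at percentile 3.80, XBP1 at 2.81 and DNAJB9 at 99.6. By sign, ERN1, at 0.05 (counting error 0.08), and DNAJB9 were the 2 genes higher in replicate 3, against 50.4% of all. The SD was lower with the trend removed for 6 of the 10 genes. Among the 10, all 5 genes with a matched ERSE lay below 0 after removal, from -0.27 to -0.02. So did HERPUD1, which holds ERSE-II, and PDIA4 and MANF, whose windows matched neither form. CALR (-0.02, counting error 0.02) and HERPUD1 (-0.02, counting error 0.08) were not beyond counting error. Outside the 10, CANX, CRELD2 and ERO1B with the ERSE and HYOU1 with ERSE-II also lay below 0. FICD with the ERSE (0.11, counting error 0.21) and SDF2L1 with ERSE-II (0.10, counting error 0.12) lay above it. A link of either element to replicate 3 was not tested. The wider lists, which hold some of the 10 genes and share genes with each other, were not alike in this respect. With the trend removed, replicate 3 was the higher in 9 of 10 translocon genes, 3 of 3 KDEL receptors, 8 of 10 transcription factors, 7 of 9 PERK branch genes, 4 of 6 sensors and proteases, 8 of 12 BiP cofactors and 12 of 20 isomerases. It was the higher in 9 of 19 degradation genes, 4 of 9 lectin cycle genes, 1 of 4 lumenal Hsp70 and Hsp90 genes and 1 of 5 XBP1 splicing and decay partners. Over all genes that met the count minimum it was the higher in 7136 of 13920. The part of the mitochondrial share and of library GC in what remained was not tested.

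**Figure D4:**
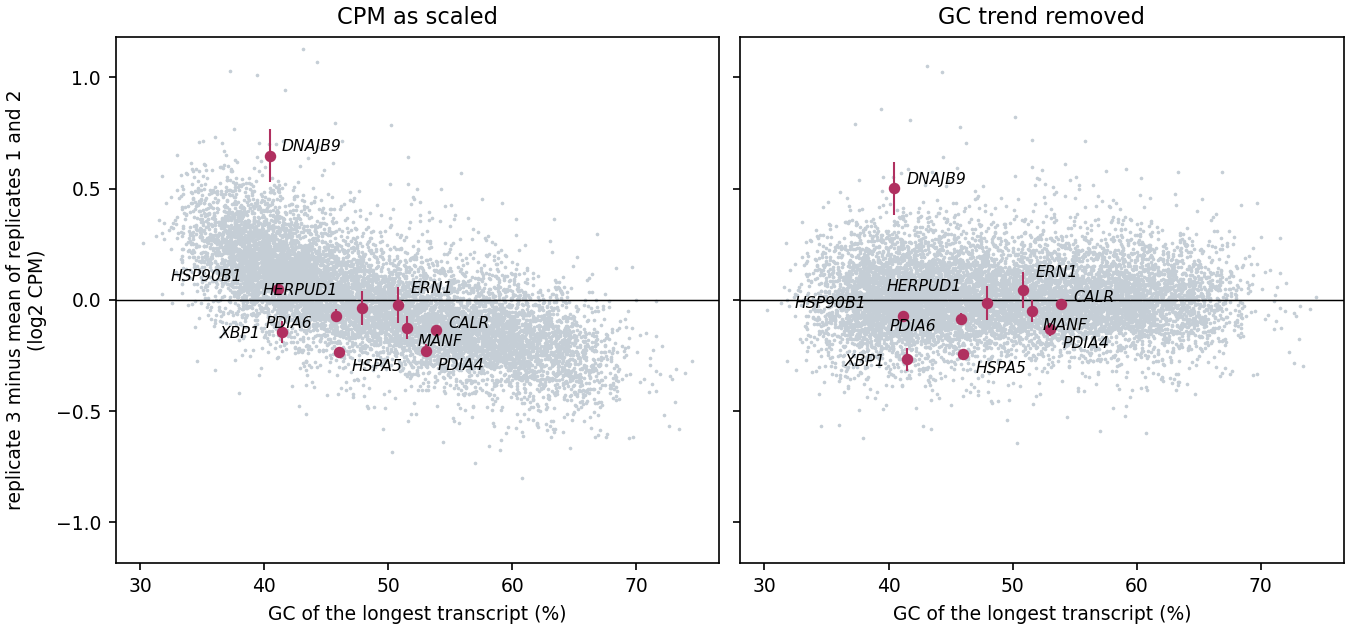
Difference of replicate 3 from the mean of replicates 1 and 2 in log2 CPM (vertical axis) against the GC content of the longest transcript (horizontal axis, %), before and after the GC trend was removed; grey points are 10290 nuclear genes and red points the 10 genes with their counting error. The trend seen at left is flat at right, where DNAJB9 stays high at 0.50 and HSPA5 and XBP1 stay low at -0.25 and -0.27.

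DNAJB9 shares 183 bases of exon with THAP5, a gene of the opposite strand. Whether the counting used strand is not given in the sources used here. THAP5 was measured at 25.7, 29.5 and 40.2 CPM in replicates 1, 2 and 3, and it too was highest in replicate 3, by 0.55 on the log2 scale before and 0.28 after removal of the GC trend. PNPLA8, which shares 99 bases with DNAJB9, was measured at 90.0, 90.0 and 98.6 CPM. The part of shared reads in the value of DNAJB9 was not tested.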

How the data were processed

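SH-SY5Y mRNA was sequenced from stranded libraries, per the labels' protocols. Values are raw counts per Ensembl gene, as the authors deposited them. The tools named are fastp 0.21.1, STAR 2.7.7a and featureCounts with build GRCh38, per the submitters' processing notes. The annotation release, the strand setting and the treatment of reads shared by genes are not given in the sources used here. Of 6 count columns, 3 match control samples by number (4, 5 and 6), and 3 match no label and were not used. The numbers of the peptide samples are 13, 14 and 15. A total of 60709 genes was read, 1 entry broken over several lines was left out, and 60436 had a symbol.

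CPM were computed with edgeR 4.0.16 (TMM; R 4.3.3) and divided by GENCODE 29 exon lengths in kb, whose release may differ from the authors'. GC trends were medians in 50 bins, tested on simulated data. Counts of pairs of libraries differed by more than sampling noise (chi-square per degree of freedom 2.21, 10.2 and 9.21). Python 3.11.15, pandas 2.3.3 and scipy 1.17.1 were used. The planned edgeR comparison was not run, since 1 group had columns. The genes and lists were chosen with earlier results of these data known, and all 10 genes were named whatever their values. Other genes were named from the lists. Genes that overlap a member, and genes whose promoter holds an ERSE or ERSE-II, were added after their values were seen. No genes of like pattern were sought, since 3 libraries of 1 group hold none.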

Additional observations from a re-analysis of the deposited data

How the results depend on the processing

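No paired analysis was possible because a single group had usable columns. For this reason the planned test of the peptide, with its alternatives, was not run. The median level of the 10 genes, 81.5 CPM per kb, was 119 CPM per kb with the longest transcript as length and 85.6 CPM per kb with mitochondrially encoded genes left out, which raises every other gene by construction. It ranged from 79.8 to 83.3 CPM per kb when each library was left out in turn. The median of the 100 pathway genes, 16.7 CPM per kb, was 21.9 with the longest transcript and 15.0 with no count minimum, which adds the lowest genes, and ranged from 16.6 to 16.8 with a library left out. The median coefficient of variation, 5.43%, ranged from 2.66% to 6.61% with a library left out. None of the 10 gene levels moved by over 1 SD with RLE factors, with unscaled library sizes or once the GC trend was taken out. These settings could hardly move a mean level. The TMM factors ran from 0.996 to 1.003 and the RLE factors from 0.990 to 1.006. The GC trends were fitted to deviations from the mean of each gene. The longest transcript moved 8 of 10 gene levels and 11 of 11 list medians. Depth limits ERN2, CALR3, CREB3L1, DERL3 and CDNF most, with at most 4 counts in any library. PDIA2, CHAC1, CRELD1, KDELR3 and TXNDC5 come next, with 28 to 33 counts in the library where each was lowest.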

Other observations

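The classical ERSE was found in 20 genes outside the 10, of which 17 were in the count table. Those with a known role in the ER are described first, picked by name and with no test of a shared role. CANX, the membrane lectin chaperone, held 1 such element, seen from 3 of its annotated starts, and was measured at 721 ± 15.1 CPM (SD, n = 3). CRELD2, an ER-resident isomerase-like protein, had 63.5 ± 8.77 CPM and shared its element with ALG12, a mannosyltransferase of the ER, which had 15.9 ± 3.79 CPM. ERO1B, an oxidase of the isomerases, had 15.3 ± 0.639 CPM and FICD had 7.54 ± 0.402 CPM. SERP1, a stabiliser of membrane proteins at the translocon, had 96.9 ± 5.82 CPM and shared its element with EIF2A, which had 97.3 ± 11.4 CPM. Of the 25 genes with the element, 22 were in the count table and 16 met the count minimum. These 16 had a median of 80.2 CPM, and the 11 of them outside the 10 genes had 26.2 CPM, against 36.7 CPM for the 10621 genes with a promoter window and that minimum. Other genes with the element were SYNPO, with 57.0 ± 6.60 CPM, TMEM120A, with 26.2 ± 0.562 CPM, TRIM5, with 10.5 ± 1.86 CPM, and ZNF17, with 9.08 ± 0.402 CPM. FRG2, FRG2B, FRG2C, GLRA2, NLRP4 and LINC02213 had at most 3 counts in any library. The element was therefore found at high and at low levels.

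ERSE-II was found in 19 genes, and those with a known role in the secretory pathway are described first, picked by name. HYOU1, which holds 2 matches, had 490 ± 53.2 CPM, NUCB1, a calcium-binding protein of the Golgi, had 162 ± 8.84 CPM, and SDF2L1, a partner of BiP and its cochaperones, had 23.2 ± 3.68 CPM. HERPUD1, with 55.4 ± 1.91 CPM, lay between NUCB1 and SDF2L1. Other genes with ERSE-II included NAV2, with 426 ± 44.9 CPM, RUVBL2, with 168 ± 4.82 CPM, and SETD3, with 79.5 ± 1.90 CPM. CNKSR1, LINC03006 and CLEC4F had at most 27 counts in any library.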
